A study of Mus musculus with 6 samples.

Results

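The 10 transcripts described here encode the core of mTOR complex 1 (mTORC1) and the regulators that hold it in check: Mtor, Rptor, Rheb, Tsc1, Tsc2, Ddit4, the sestrins Sesn1, Sesn2 and Sesn3, and Depdc5. They were chosen by name from the pathway, with earlier results of these data known. All 10 matched rows of a table of 48440 genes by symbol in GENCODE release M21. mTORC1 is a lysosomal kinase complex that promotes protein synthesis and cell growth and restrains autophagy. Growth factor and antigen receptor signals reach it through RHEB, a small GTPase that the TSC1 and TSC2 proteins switch off. Amino acids reach it through the RAG GTPases, which the GATOR1 complex switches off and which sestrins restrain by binding GATOR2 when leucine is scarce. In T cells mTORC1 activity is known to accompany exit from rest and to depend on amino acid uptake. It is controlled largely on the proteins, by phosphorylation and binding, which RNA levels do not show.

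RNA was measured in primary CD4+ helper T cells of wild-type mice, taken from lymph node and spleen. The labels read here give no age. All cells had first been activated on plate-bound antibodies against CD3 and CD28 for 3 days and then expanded in interleukin 2 for 5 days. The unstimulated cells compared here were therefore previously activated ones. The stimulated group met both antibodies again for 4 hours, and the unstimulated group was not restimulated, with 3 libraries each. The labels do not say whether replicates were separate mice or cultures, so every p-value reflects the variation among 6 libraries and that variation may be technical.

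The 6 libraries held 29897720 to 30252923 counted reads, and a floor of 3 reads corresponded to 0.0943 to 0.106 CPM. The marker counts here are read against all genes tested, of which 38.4% rose and 39.1% fell. All 10 markers listed for CD4+ T cells were detected and 9 of them fell. Their summed levels were 2818 to 2900 CPM in stimulated and 5072 to 5523 CPM in unstimulated cells. Of the 9 B cell markers, 6 fell and none rose, and their sum was 1059 to 1934 CPM in stimulated against 1819 to 4035 CPM in unstimulated cells, with 68.9% of it from Ighm. The markers of neutrophils, NK cells and platelets each summed to at most 0.221 CPM in any library, and S100a8, Ngp, Ppbp, Siglech and Hba-a2 had no read at all. Macrophage and monocyte markers summed to 3.00 to 3.69 CPM in stimulated and 6.38 to 8.27 CPM in unstimulated cells, and 2 of the 4 tested fell. Dendritic cell markers summed to 5.83 to 7.97 CPM in stimulated and 1.38 to 2.32 CPM in unstimulated cells, and 3 of the 4 tested rose and 1 fell. Erythroid markers summed to 0.213 to 0.827 CPM in stimulated and 0.605 to 1.89 CPM in unstimulated cells, and CD8 markers to at most 25.8 CPM in any library. The stroma and endothelium sum of 46.0 to 59.1 CPM in stimulated and 177 to 196 CPM in unstimulated cells was 98.4% Pecam1. Mitochondrially encoded transcripts took 0.965% to 1.31% of counts in stimulated and 0.904% to 1.25% in unstimulated libraries. The part of these in the results below was not tested. In bulk RNA, fewer cells of a type and less RNA per cell cannot be told apart.

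After 4 hours of restimulation the transcripts of the mTORC1 kinase, its scaffold and its activator RHEB rose, while those of Ddit4, the 3 sestrins and Depdc5 fell. Of the 10 genes, 3 rose (Mtor, Rptor, Rheb), 6 fell (Ddit4, Sesn1, Sesn2, Sesn3, Depdc5, Tsc2) and Tsc1 was not called (edgeR's quasi-likelihood test, adjusted p below 0.05). The fall of Tsc2 was lost under most other settings. Across all 13314 genes tested 77.5% were called, 38.4% upward and 39.1% downward, so a called change is itself common in this comparison. The 10 changes had a median log2 fold change of -0.38, against -0.043 over all genes tested. Only Ddit4 and Sesn1 changed by more than 2-fold when tested against that size with glmTreat, which called 35.6% of all genes tested, 17.4% upward and 18.2% downward. Both of these genes fell. The 3 libraries of each group did not overlap for 9 of the 10 genes, as for 79.8% of all genes tested. In 6 of the 9 the stimulated libraries were the lower ones and in 3 the higher ones, against 40.4% and 39.4% of all genes tested. Scaling by library size alone moved the median of all genes by -0.14, so the calls of genes that moved by about that much turn on how libraries are scaled. All scalings used rest on the counts themselves, so changes in RNA per cell were not measured.

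**Figure D1:**
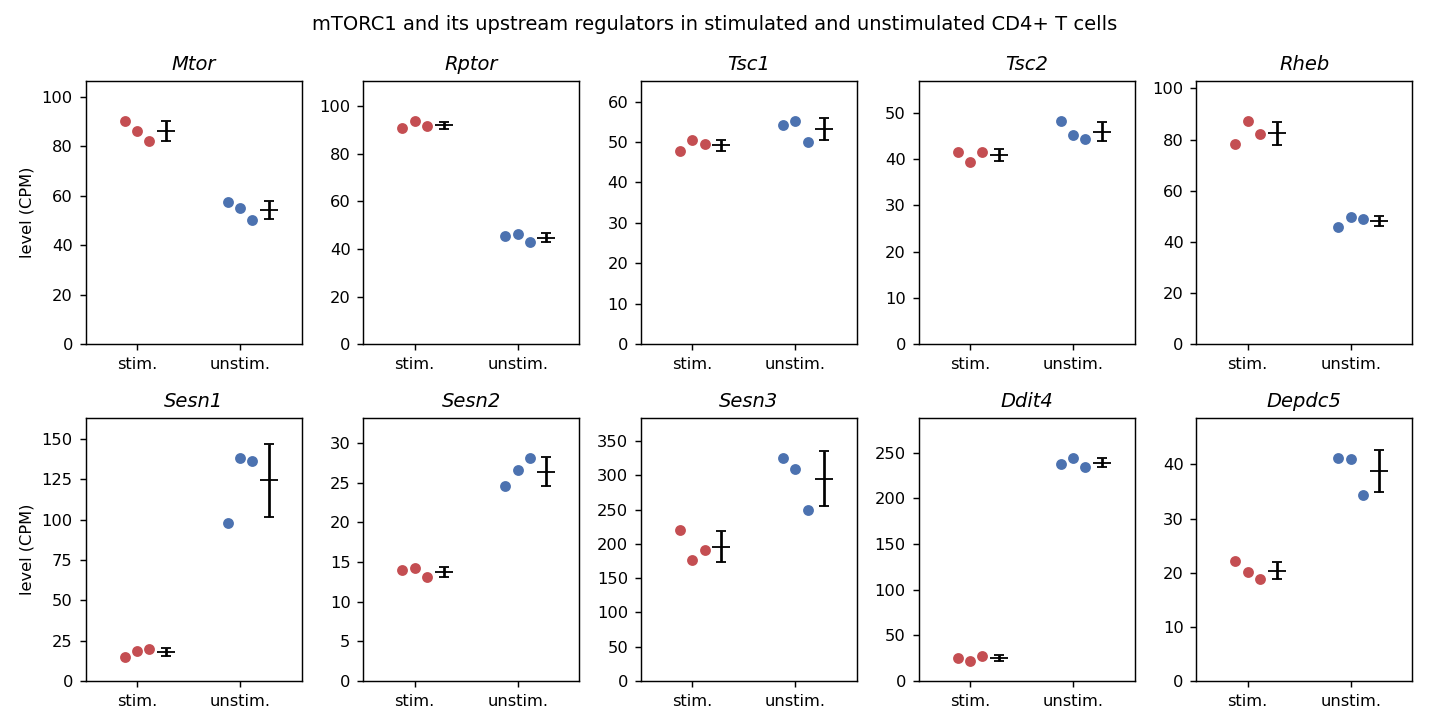
Level in CPM (y axis, from 0) of each of the 10 genes in the 3 stimulated (red) and 3 unstimulated (blue) libraries, with mean and SD as black bars. The groups are separate for every gene but Tsc1, with Ddit4 near 25.0 CPM in stimulated and 239 CPM in unstimulated cells.

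Mtor, the kinase itself (ENSMUSG00000028991, GRCm38 chromosome 4, 148448611 to 148557683, plus strand), had 90.2, 86.4 and 82.2 CPM in stimulated libraries, against 57.3, 55.2 and 50.2 CPM in unstimulated ones. Every stimulated library lay above every unstimulated one, by a margin wider than the range within either group. The rise was 1.59-fold (log2 fold change 0.67, SE 0.074; edgeR, adjusted p = 3.1e-05). Rptor, which encodes RAPTOR, the scaffold that presents substrates to the kinase (ENSMUSG00000025583, chromosome 11, 119602905 to 119899576, plus strand), had 90.7, 93.6 and 91.4 CPM in stimulated libraries, against 45.3, 46.2 and 42.8 CPM in unstimulated ones. Its libraries were the tightest of the 10 genes after stimulation, with a coefficient of variation of 1.64%, and the groups were far apart. The rise was 2.05-fold (log2 fold change 1.04, SE 0.063; edgeR, adjusted p = 5.1e-07). Rheb, the GTPase that activates mTORC1 at the lysosome (ENSMUSG00000028945, chromosome 5, 24802823 to 24842624, minus strand), had 78.1, 87.2 and 82.2 CPM in stimulated libraries, against 45.8, 49.5 and 49.1 CPM in unstimulated ones. Again all stimulated libraries were the higher ones, with a 1.71-fold rise (log2 fold change 0.78, SE 0.070; edgeR, adjusted p = 7.5e-06). None of the 3 rises passed the test against 2-fold, where Rptor had an adjusted p of 0.269 in glmTreat.

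The 2 genes of the TSC complex, which turns RHEB off, changed least of the 10. Tsc1, the stabilising subunit (ENSMUSG00000026812, chromosome 2, 28641228 to 28691167, plus strand), had 47.7, 50.4 and 49.4 CPM in stimulated libraries, against 54.2, 55.2 and 50.1 CPM in unstimulated ones. Stimulated replicate 2 lay above unstimulated replicate 3, so the groups overlapped. The log2 difference was -0.11 (SE 0.068; edgeR, adjusted p = 0.16; other settings gave 0.00637 to 0.514). It was called with library size alone, at -0.25, and on leaving out unstimulated replicate 3, at -0.16. Tsc2, the subunit with the GTPase-activating domain (ENSMUSG00000002496, chromosome 17, 24595816 to 24632630, minus strand), had 41.4, 39.3 and 41.6 CPM in stimulated libraries, against 48.1, 45.3 and 44.2 CPM in unstimulated ones. The groups did not overlap, but the gap between the closest libraries was smaller than the range within the unstimulated group. The fall was 0.17 on the log2 scale (log2 fold change -0.17, SE 0.068; edgeR, adjusted p = 0.043; other settings gave 0.00186 to 0.256). That call was lost with DESeq2, with RLE normalization and on leaving out any 1 library except unstimulated replicate 3. Exons of Tsc2 also share 693 bases, 7.2% of their length, with Pkd1 on the opposite strand. Pkd1 had 58.3 ± 3.72 CPM in stimulated and 82.3 ± 11.6 CPM in unstimulated cells (SD, n = 3 each), and whether reads were assigned by strand is not given in the sources used here. Per length of exon, the log2 ratio of Tsc1 to Tsc2 was -0.027 ± 0.082 in stimulated and -0.087 ± 0.064 in unstimulated cells (SD, n = 3 each; exact permutation test, two-sided, p = 0.5, where 3 against 3 libraries cannot go below 0.1). The libraries of the groups overlapped in this ratio. That limit keeps the test above 0.05 for a shift of any size. Whether the balance of the 2 subunits changed is therefore not decided here.

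Ddit4 changed most of the 10. It encodes REDD1, a stress-induced protein that restrains mTORC1 through the TSC complex, and lies at chromosome 10, 59949669 to 59951834, minus strand (ENSMUSG00000020108). Stimulated libraries had 25.3, 21.9 and 27.8 CPM, against 238, 245 and 235 CPM in unstimulated ones. The unstimulated libraries differed by little, with a coefficient of variation of 2.03%, and each of them was far above any stimulated library. The fall was 9.57-fold (log2 fold change -3.26, SE 0.096; edgeR, adjusted p = 9.6e-09; adjusted p = 4.3e-08 against 2-fold in glmTreat). Of all genes tested 2.55% had a lower log2 fold change.

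The sestrins fell to unequal extents. They are stress-induced proteins of which SESN2 is known as a leucine sensor, and Sesn1 fell most. Sesn1 (ENSMUSG00000038332, chromosome 10, 41809935 to 41908424, plus strand) had 14.9, 18.7 and 19.7 CPM in stimulated libraries, against 97.9, 138 and 136 CPM in unstimulated ones. Unstimulated replicate 1 was lower than the other unstimulated libraries, yet far above all stimulated ones. The fall was 6.99-fold (log2 fold change -2.81, SE 0.16; edgeR, adjusted p = 9.4e-07; adjusted p = 7.3e-06 against 2-fold in glmTreat), and 4.17% of all genes tested had a lower log2 fold change. Sesn2 (ENSMUSG00000028893, chromosome 4, 132492032 to 132510501, minus strand) had 13.9, 14.2 and 13.1 CPM in stimulated libraries, against 24.5, 26.6 and 28.1 CPM in unstimulated ones. The groups were well apart, and the fall was 1.92-fold (log2 fold change -0.94, SE 0.088; edgeR, adjusted p = 9.2e-06). Sesn3 (ENSMUSG00000032009, chromosome 9, 14275067 to 14333101, plus strand) had 221, 177 and 191 CPM in stimulated libraries, against 326, 309 and 249 CPM in unstimulated ones. The groups did not overlap, and the coefficient of variation was 11.4% in stimulated and 13.6% in unstimulated cells. The fall was 1.5-fold (log2 fold change -0.59, SE 0.12; edgeR, adjusted p = 0.0015). Neither Sesn2 nor Sesn3 passed the test against 2-fold (glmTreat, adjusted p of 0.919 and 1).

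Because the 3 sestrins fell by different amounts, their mix differed between the groups. Counted as reads per kilobase of exon, Sesn1 made up 16.8%, 23.0% and 23.4% of the sestrin total in stimulated libraries, against 46.4%, 55.4% and 58.4% in unstimulated ones. Sesn3 made up 65.1%, 56.9% and 58.9% in stimulated libraries, against 40.3%, 32.4% and 27.8% in unstimulated ones. Sesn2 made up 18.1%, 20.1% and 17.7% in stimulated libraries, against 13.3%, 12.2% and 13.8% in unstimulated ones. None of these shares overlapped between the groups, and each gave p = 0.1 in a two-sided exact permutation test, the smallest p that 3 against 3 libraries allow (adjusted p = 0.133 over the 4 ratios tested, which include that of Tsc1 to Tsc2). With the longest transcript as the length, Sesn1 and Sesn3 had nearly equal shares in unstimulated cells, 44.8% ± 6.55 and 44.7% ± 6.95 (SD, n = 3), while in stimulated cells Sesn3 held 71.2% ± 3.68 and Sesn1 15.6% ± 2.99 (SD, n = 3). Under that length Sesn2 held 13.2% ± 1.07 in stimulated and 10.5% ± 0.788 in unstimulated cells (SD, n = 3 each). The difference in the Sesn2 share was then 2.67 percentage points, in place of 5.51. The summed sestrin level was 63.0 ± 2.76 TPM (reads per kilobase of exon, scaled to the same total in every library) in stimulated and 190 ± 15.8 TPM in unstimulated cells (SD, n = 3 each).

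**Figure D2:**
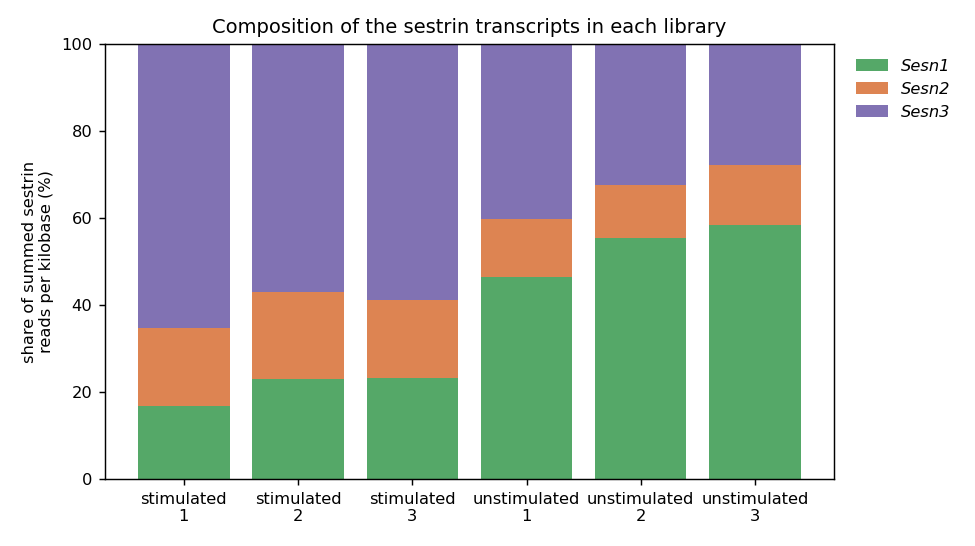
Share of each sestrin in the summed sestrin reads per kilobase of exon (y axis, percent), 1 stacked bar per library. Sesn1 makes up 46.4% to 58.4% in the unstimulated libraries and 16.8% to 23.4% in the stimulated ones, where Sesn3 is the largest share.

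Depdc5 encodes a subunit of GATOR1, which switches off the RAG GTPases when amino acids are scarce (ENSMUSG00000037426, chromosome 5, 32863701 to 32994236, plus strand). It had 22.1, 20.2 and 18.9 CPM in stimulated libraries, against 41.2, 41.0 and 34.3 CPM in unstimulated ones. Unstimulated replicate 3 was the lowest of its group and still above every stimulated library. The fall was 1.91-fold (log2 fold change -0.93, SE 0.10; edgeR, adjusted p = 2.5e-05), and it did not pass the test against 2-fold (glmTreat, adjusted p = 0.941).

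Levels can be compared between genes only per length, here as TPM over the summed exon length. In unstimulated cells Ddit4 stood first at 445 ± 17.7 TPM, followed by Sesn1 at 102 ± 17.7 TPM, Sesn3 at 63.2 ± 9.94 TPM and Sesn2 at 24.8 ± 1.22 TPM (SD, n = 3 each). The brakes Ddit4 and the sestrins were thus all above Rheb (20.4 ± 0.761 TPM), Mtor (17.5 ± 1.57 TPM), Tsc2 (15.6 ± 0.988 TPM), Tsc1 (14.7 ± 1.06 TPM), Rptor (10.9 ± 0.660 TPM) and Depdc5 (10.8 ± 1.32 TPM). Libraries of neighbours in that order overlapped for Mtor and Tsc2, for Tsc2 and Tsc1, and for Rptor and Depdc5. In stimulated cells Ddit4 (42.2 ± 5.02 TPM) and Sesn3 (38.1 ± 4.39 TPM) had the highest levels and overlapped each other. Rheb (31.7 ± 1.71 TPM), Mtor (25.3 ± 1.22 TPM) and Rptor (20.2 ± 0.317 TPM) came next, each apart from its neighbours. Sesn1 (13.2 ± 1.90 TPM), Tsc2 (12.6 ± 0.405 TPM), Tsc1 (12.3 ± 0.331 TPM) and Sesn2 (11.7 ± 0.524 TPM) followed, each overlapping the next. Depdc5 was last at 5.13 ± 0.419 TPM. With the longest transcript as the length, Rheb (44.7 TPM) and Sesn3 (47.1 TPM) stood above Ddit4 (31.2 TPM) in stimulated cells, so the order there depends on the gene model. In unstimulated cells Rheb (28.6 TPM) then stood above Sesn2 (18.3 TPM), and Sesn1 (78.4 TPM) and Sesn3 (77.9 TPM) were level. Under that length Rptor stood above Mtor, at 30.6 against 22.1 TPM in stimulated and 16.4 against 15.3 TPM in unstimulated cells. In stimulated cells Sesn1 (10.2 TPM) and Sesn2 (8.66 TPM) then lay below Tsc1 (14.0 TPM) and Tsc2 (14.3 TPM).

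**Figure D3:**
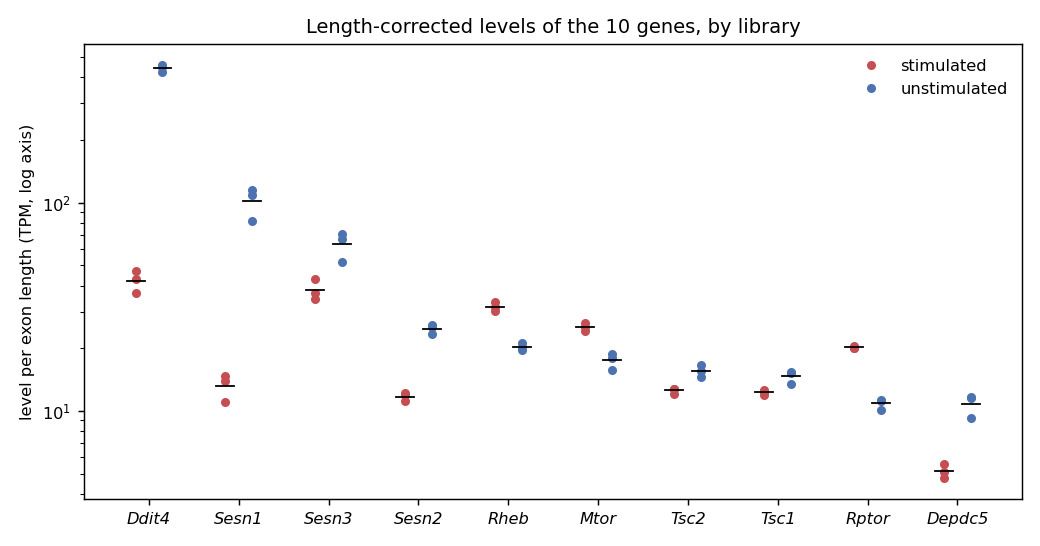
Level per exon length of the 10 genes (y axis, TPM on a log axis), with 1 point per library and a bar at the mean, stimulated in red and unstimulated in blue. Genes run from high to low in unstimulated cells, from Ddit4 at 445 TPM to Depdc5 at 10.8 TPM, and in stimulated cells the span narrows to between 42.2 and 5.13 TPM.

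The sequence before the gene start was read for all 10 genes from RefSeq promoter windows of 300 bases (GRCm38.p6, 250 bases before to 50 after the start), 11 windows in all because Sesn1 has 2 starts. The motifs searched on both strands were GTAAACA, bound by FOXO factors, TGATGNAA, bound by ATF4 with a C/EBP partner, ACGTG and GCGTG, cores of hypoxia response elements, and CACGTG, the E-box of MYC and TFEB. A match describes the letters only. The windows of Ddit4, the upstream start of Sesn1 and Rheb are shown because Ddit4 and Sesn1 fell most and Rheb rose, and because they hold different motifs. Capitals mark the matches, read 5′ to 3′ on the strand of the gene. The windows lie at chr10:59951721-59952020 on the minus strand, chr10:41810324-41810623 on the plus strand and chr5:24842312-24842611 on the minus strand.
Ddit4: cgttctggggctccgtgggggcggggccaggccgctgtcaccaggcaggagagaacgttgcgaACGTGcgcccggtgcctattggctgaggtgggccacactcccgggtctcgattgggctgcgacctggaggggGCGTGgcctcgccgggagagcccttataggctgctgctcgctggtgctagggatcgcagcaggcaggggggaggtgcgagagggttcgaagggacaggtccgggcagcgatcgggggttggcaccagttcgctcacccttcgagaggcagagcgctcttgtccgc
Sesn1: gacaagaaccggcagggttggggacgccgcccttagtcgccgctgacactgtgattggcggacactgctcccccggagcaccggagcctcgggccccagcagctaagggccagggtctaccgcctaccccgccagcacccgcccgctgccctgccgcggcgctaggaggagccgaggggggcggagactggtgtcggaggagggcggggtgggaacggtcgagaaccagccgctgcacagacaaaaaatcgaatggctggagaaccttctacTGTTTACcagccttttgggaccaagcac
Rheb: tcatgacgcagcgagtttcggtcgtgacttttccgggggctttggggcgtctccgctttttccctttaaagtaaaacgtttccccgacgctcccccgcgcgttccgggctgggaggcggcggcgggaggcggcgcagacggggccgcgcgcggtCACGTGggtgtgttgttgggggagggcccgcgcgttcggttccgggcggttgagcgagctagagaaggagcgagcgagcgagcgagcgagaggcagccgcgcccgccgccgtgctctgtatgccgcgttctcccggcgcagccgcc

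The Ddit4 window held ACGTG, beginning 187 bases before the start, and GCGTG, beginning 115 bases before it. Those motifs occurred in 19.6% and 32.4% of the 32851 windows of all genes. The Sesn1 window held GTAAACA on the opposite strand, read as TGTTTAC, beginning at base 23 of the transcript, and 3.65% of all windows held it. The other Sesn1 window (chr10:41887189-41887488) held GCGTG only. Rheb held CACGTG, beginning 96 bases before the start, as did 7.15% of all windows, and its ACGTG matches lie within that E-box. No member window held TGATGNAA, found in 3.97% of all windows. Those of Mtor, Sesn2 and Sesn3 held none of the 5 motifs, those of Tsc1, Tsc2 and Depdc5 held GCGTG, and that of Rptor held ACGTG and GCGTG.

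The rest of the pathway was described with 9 lists of 76 genes, the 10 above included, of which 72 were tested. Without the 10, 28 of 62 rose (45.2%), 25 fell (40.3%) and 9 did not pass, with a median log2 fold change of 0.14. Over all genes tested 38.4% rose and 39.1% fell, so these shares are near those of all genes. The counts of each list are read against the same shares. Of 9 subunits of mTORC1 and mTORC2, 5 rose and 2 fell (median log2 fold change 0.35). Mlst8, a subunit of both complexes, rose to 47.1 ± 0.552 CPM in stimulated cells, against 36.1 ± 1.76 CPM in unstimulated ones (SD, n = 3 each). Rictor, the scaffold particular to mTORC2, fell by 0.63 on the log2 scale (log2 fold change -0.63, SE 0.081), the opposite direction to Rptor. Deptor, an inhibitor bound to both complexes, had 0.235 ± 0.174 CPM in stimulated and 1.78 ± 0.138 CPM in unstimulated cells (log2 fold change -2.91, SE 0.48). Its 3 stimulated libraries held 20 reads together, and stimulated replicate 3, at 0.0345 CPM, lay below the floor of 3 reads. Only 3 subunits rose with library size alone or without the 20 most abundant genes and on leaving out stimulated replicate 2, stimulated replicate 3 or unstimulated replicate 2. All 5 assembly factors rose (median log2 fold change 1.94), with the ATPases Ruvbl1 and Ruvbl2 up 5.11-fold and 3.85-fold and Telo2, which stabilises mTOR and related kinases, up 4.03-fold.

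Of 8 genes in a list of amino acid sensors and related genes, 7 fell, the 3 sestrins among them, and 1 rose (median log2 fold change -1.24). Castor2, a relative of the arginine sensor CASTOR1, fell to 6.53 ± 0.804 CPM in stimulated cells, against 30.1 ± 0.243 CPM in unstimulated ones (SD, n = 3 each). Slc38a9, a lysosomal arginine transporter that signals to the RAG GTPases, fell 2.89-fold. The exception was Sar1b, a COPII coat GTPase also described as a leucine sensor, which rose 1.64-fold. The subunits that share GATOR1 with Depdc5 went opposite ways. Nprl2 fell to 8.66 ± 0.501 CPM in stimulated cells, against 27.1 ± 2.15 CPM in unstimulated ones, and Nprl3 rose to 32.6 ± 1.51 CPM, against 15.7 ± 1.14 CPM (SD, n = 3 each). Of KICSTOR, which tethers GATOR1 to the lysosome, BC048403 and Itfg2 rose 3.88-fold and 1.71-fold. In the list of GATOR1 and KICSTOR 3 of 6 genes rose and 2 fell (median log2 fold change 0.31). Of the 5 subunits of GATOR2, which antagonises GATOR1 and to which sestrins bind, 4 rose and 1 fell (median log2 fold change 1.07). Among all genes tested, 38.4% rose and 39.1% fell. Wdr59 and Sec13 rose 3.97-fold and 2.71-fold and Seh1l 1.80-fold. Wdr24 differed by -0.24, a call lost with DESeq2, with RLE normalization and on leaving out stimulated replicate 1 or 2 or unstimulated replicate 2 or 3 (edgeR, adjusted p = 0.042; other settings gave 0.00407 to 0.164). Sec13 and Seh1l also serve in the nuclear pore and, for Sec13, the COPII coat.

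In the TSC, RHEB and REDD list, 2 of 6 tested genes rose and 2 fell, against 38.4% and 39.1% of all genes tested. Rhebl1, a relative of RHEB, rose 1.80-fold beside Rheb. Among 12 genes of the RAG GTPases, the Ragulator scaffold and folliculin, 4 rose and 6 fell. Fnip2, a partner of folliculin, rose to 33.7 ± 2.54 CPM in stimulated cells, against 1.97 ± 0.806 CPM in unstimulated ones (SD, n = 3 each; log2 fold change 4.09, SE 0.23), the largest change of any gene tested in the 9 lists. Folliculin itself (Flcn) fell by 0.53 on the log2 scale, as did the Ragulator genes Lamtor1 (by 0.57) and Lamtor2 (by 0.71), while Rraga and Rragd rose 1.96-fold and 3.32-fold. Of 12 tested substrates and effectors 3 rose and 7 fell (median log2 fold change -0.68). Larp1, which binds mRNAs of the translation machinery, rose to 983 ± 34.3 CPM in stimulated cells, against 191 ± 35.9 CPM in unstimulated ones, and the S6 kinase gene Rps6kb1 to 87.2 ± 4.66 CPM, against 47.1 ± 2.29 CPM (SD, n = 3 each). Pdcd4, a translation inhibitor, fell 9.21-fold, the autophagy kinase gene Ulk1 4.81-fold and Lpin1, a phosphatidate phosphatase, 4.71-fold. Eif4ebp1 differed by 0.32 (edgeR, adjusted p = 0.047; other settings gave 0.0021 to 0.274), a call lost with library size alone or without the 20 most abundant genes, with limma-voom, with a filter of 1 CPM and on leaving out stimulated replicate 2 or 3 or unstimulated replicate 2 or 3. For AMPK, the energy sensor that acts on TSC2 and RAPTOR, and its upstream kinases, 4 of 9 tested genes rose and 4 fell. The upstream kinase gene Camkk2 and the AMPK subunit genes Prkab2 and Prkag2 rose 3.79-fold, 2.81-fold and 1.47-fold. The subunit genes Prkag1, Prkaa1 (catalytic) and Prkab1 fell 4.11-fold, 1.59-fold and 1.34-fold. Apart from Tsc2, Wdr24 and Eif4ebp1, the adjusted p of the called genes named in these paragraphs was at most 0.000618 in edgeR's quasi-likelihood test.

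**Figure D4:**
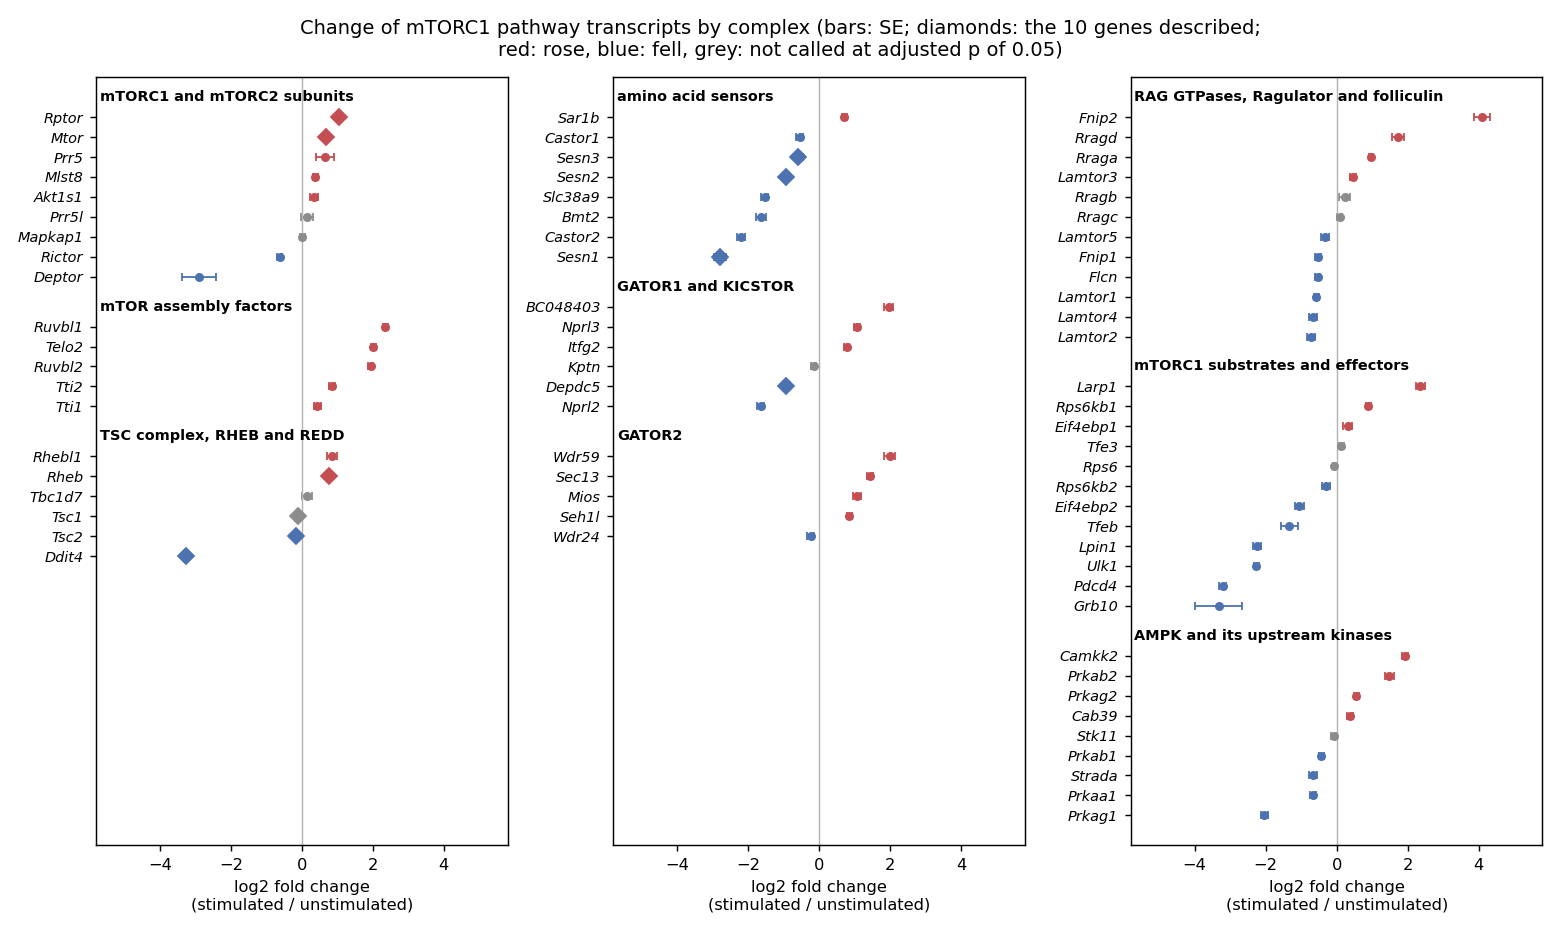
Log2 fold change of stimulated over unstimulated cells (x axis) with SE bars for the 72 tested genes of the 9 pathway lists, grouped by complex, with the 10 genes described as diamonds and colours for the call (red rose, blue fell, grey not called). Genes listed as amino acid sensors and related genes lie left of 0 except Sar1b, and the assembly factors and GATOR2 lie right of 0 except Wdr24.

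The genes whose course over the 6 libraries was most like that of Ddit4, the member with the largest change, were sought among 8418 genes with a mean of at least 10 CPM. The measure was the root mean square difference of log2 levels, each gene centred on its own mean. Arhgap45, Snx20 and Add1 came closest, with differences of 0.0475, 0.0697 and 0.0732 on the log2 scale. Arhgap45 had 173 ± 14.5 CPM in stimulated and 1670 ± 48.2 CPM in unstimulated cells (SD, n = 3 each). All 3 fell, with log2 fold changes of -3.27, -3.29 and -3.23, against -3.26 for Ddit4. That likeness follows from the way they were chosen and is not a separate result.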

How the data were processed

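RNA was measured in 3 stimulated and 3 unstimulated libraries of mouse CD4+ T cells. The authors deposited a single table of unnormalized counts, 1 row for each Ensembl gene identifier. A TruSeq RNA kit was used, per the labels' protocols. The submitters' processing notes name GRCm38, DESeq2, HTSeq and STAR 2.5.2a, with no role for each. The sources used here do not give the annotation release or strand setting.

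Groups came from the labels, which give no batch. The members and lists were chosen with earlier results of these data known. Counts were tested with edgeR 4.0.16 (R 4.3.3): TMM normalization, filterByExpr, robust dispersions, the two-sided quasi-likelihood test of a model holding the group alone, and Benjamini-Hochberg adjustment over the 13314 genes that passed the filter, at 0.05. All 10 members passed. In the pathway lists, 1 gene is not reported here. glmTreat tested against 2-fold. CPM used TMM-scaled library sizes, and TPM used GENCODE M21 exon lengths. Genes named were the 10 members and, per list, the 3 rises and 3 falls with the smallest p. Alternatives were RLE normalization, library size alone, library size without the 20 most abundant genes, DESeq2 1.42.0, limma-voom (limma 3.58.1), a filter of 1 CPM in 3 libraries, no filter, a replicate block, leaving out libraries, an adjusted p of 0.01, and other lengths or 0.5 added counts for the ratios. The pipeline was tested on simulated data in which few genes changed, as many up as down. In the real data 77.5% of genes tested were called, a setting that the simulation does not cover. No pair of libraries of a group agreed within counting noise (dispersion index of 9.41 or more, where counting noise gives about 1). Counts without molecular identifiers are not independent molecules, so floors cover counting error only.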

Additional observations from a re-analysis of the deposited data

How the results depend on the processing

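Mtor, Rptor, Rheb, Ddit4, Sesn1, Sesn2, Sesn3 and Depdc5 kept their direction and stayed past the threshold under all 18 alternatives run. Tsc2 lost its call with DESeq2 and with RLE normalization (-0.15 in both), with no filter (-0.17), at an adjusted p of 0.01 (-0.17) and on leaving out any 1 library except unstimulated replicate 3, or both libraries numbered 1 or 2 (-0.19 to -0.13). Over all left-out libraries its range was -0.21 to -0.13. Tsc1 was called with library size alone (-0.25), with library size without the 20 most abundant genes (-0.26) and without unstimulated replicate 3 (range -0.16 to -0.069 over left-out libraries). The mTORC1 and mTORC2 subunits that rose numbered 3 with library size alone, without the 20 most abundant genes and at 0.01, and 3 to 5 on leaving out libraries. In the TSC, RHEB and REDD list 1 gene fell with DESeq2, RLE, no filter or 0.01, and 1 to 3 on leaving out libraries. In GATOR2 0 fell with DESeq2, RLE or 0.01, and 0 to 1 on leaving out libraries. Of the FOXO list 0 rose with library size alone, without the 20 most abundant genes, with no filter, with the replicate block or at 0.01, and 0 to 1 on leaving out libraries. Of the p53 list 4 rose without the 20 most abundant genes, and 3 to 7 on leaving out libraries. Over all genes 5326 rose and 5516 fell with the replicate block, against 5113 and 5207 without it, and no member's call changed. Same-numbered libraries deviated together with correlations of 0.361, 0.0845 and 0.38, and every library correlated best with its own number, which is a hint from the data and not from the design. No result reversed its direction.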

Other observations

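Genes that textbooks place under the transcription factors known to act on Ddit4 or the sestrins were also counted, in lists that share members with each other and with the 10 genes. Of 15 FOXO factors and targets, Sesn1 and Sesn3 included, 13 fell and 1 rose (median log2 fold change -2.09). Klf2 and S1pr1, which keep T cells recirculating, fell 39.0-fold each, and Pik3ip1, an inhibitor of PI3 kinase, fell 18.9-fold. Bcl6 rose by 0.64 on the log2 scale (edgeR, adjusted p = 0.045; other settings gave 2.6e-06 to 0.29), a call lost under 11 of the 18 alternatives. Of 15 tested ATF4 genes 11 rose and 4 fell, and those that fell were Ddit3, Trib3, Sesn2 and Ddit4. Asns, which makes asparagine, rose to 103 ± 1.25 CPM in stimulated cells, against 6.15 ± 0.972 CPM in unstimulated ones, while Trib3 fell to 3.79 ± 0.0921 CPM, against 33.5 ± 8.10 CPM (SD, n = 3 each). Shmt2 and the amino acid transporter subunit Slc3a2 rose 6.29-fold and 4.57-fold.

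Of 14 tested p53 genes 7 rose and 6 fell (median log2 fold change 0.086). The number that rose was 4 with library size without the 20 most abundant genes and 3 without both libraries numbered 2. Aen, a nuclease, and Cdkn1a, a cell cycle inhibitor, rose 7.02-fold and 2.91-fold, Mdm2 rose by 0.29 on the log2 scale (a call lost without the 20 most abundant genes and without both libraries numbered 2), and Trp53inp1 fell 6.85-fold beside Sesn1 and Ddit4. Of 8 glucocorticoid genes 3 rose and 4 fell: Tsc22d3 fell 12.3-fold and the receptor Nr3c1 2.15-fold, while Fkbp5 rose 2.11-fold, Klf9 1.80-fold and Per1 1.30-fold. Of 10 hypoxia genes 3 rose and 4 fell, with Egln3, Vegfa and Hif1a up 4.39-fold, 3.58-fold and 1.70-fold and Bnip3l and Pdk1 down 6.64-fold and 4.54-fold. Apart from Bcl6, the adjusted p of the genes named here was at most 0.00266 in edgeR's quasi-likelihood test. Ddit3 was named after its value was seen. All called genes of these lists are read against 38.4% of genes tested that rose and 39.1% that fell.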
